A study of Dendrobium officinale with 6 samples.

Results

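Embryo and meristem identity in seed plants is set by a few families of transcription factors, and 40 of the 157901 unigenes assembled from *Dendrobium officinale* carried a name of such a factor. A unigene is an assembled transcript contig, and members were taken by words in their best protein descriptions. The word "knotted" found 25 contigs, "WUSCHEL" found 10 and "CUP-SHAPED" found 5. The words BABY BOOM, AINTEGUMENTA, LEAFY COTYLEDON, FUSCA3, ABSCISIC ACID INSENSITIVE3 and SHOOT MERISTEMLESS found 0 contigs each. The orchid AP2-type genes in these annotations are written with the short names AIL, BBM and ANT, which the words do not catch, and they are described after the members.

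RNA from leaves of the original, greenhouse-grown plants was compared with RNA from protocorm-like bodies (PLBs), the embryo-like tissue bodies through which orchids are propagated in culture. By the labels, PLBs were raised from seeds on half-strength MS medium with α-NAA at 0.5 mg/L, 6-BA at 1.0 mg/L, 2,4-D at 1.5 to 2.0 mg/L and potato juice at 100 g/L, under 16 h of light and 8 h of dark for 60 days. The study's methods used a medium with 2,4-D as its only hormone for induction from seeds and arrived at the labelled formula for multiplying cut PLBs, and they do not say from which step the sequenced PLBs came. The leaves had no such medium, so tissue, age and hormone supply cannot be told apart. Each tissue had 3 libraries (leaf replicates 1 to 3 and PLB replicates 1 to 3), and the study calls them biological replicates.

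Class I KNOX proteins, the knotted-type homeodomain factors, keep cells of the shoot meristem undifferentiated, and in most simple leaves their genes are switched off. Class II KNOX proteins are made in differentiating organs, and in Arabidopsis they act largely against the class I genes. WUSCHEL and its relatives, the WOX proteins, maintain stem cells and pattern the early embryo. CUP-SHAPED COTYLEDON (CUC) proteins are NAC factors that mark the boundaries between organs and help to switch on class I KNOX genes.

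By their closest SwissProt protein, 14 of the knotted contigs were of class I and 11 of class II. This split was made after the annotation had been seen. Members were 521 to 3601 bp long with a median of 1417 bp, against 817 bp for all unigenes. A best match in *Dendrobium catenatum* was given for 36 of them, and 37 matched 23 different annotated nucleotide loci. The assembly had put 20 of the contigs into 7 contig clusters (groups of similar contigs, such as alleles and splice forms), while 20 stood alone, which gave 27 units in all. All 5 CUC contigs carried the NAM domain and 9 of the 10 WOX contigs a homeobox domain. Of the class I contigs 7 had a KNOX2 domain and 1 a KNOX1 domain, while 3 (Unigene11518, Unigene16068 and Unigene7670) had no domain listed. The other 3 had only a Maf-like domain, all of them in cluster CL11370. That cluster also held 9 contigs described as maf-like protein, a name with no known tie to meristems, and its values therefore mix both kinds of transcript. The 3 knotted contigs with a Maf-like domain matched the same nucleotide locus as the maf-like contigs.

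Levels are given as TPM (a share of all transcripts in a library, corrected for contig length). Expected counts summed to between 17602153 and 18408442 per library. TPM ratios ran above the ratios of normalised counts: over 19629 well-covered contigs the TPM ratio of PLB to leaf was larger by a median of 0.52 on the log2 scale, or 1.43-fold, and a TPM ratio of about that size is no difference on the scale of the test. Fold changes and adjusted p-values are from edgeR's quasi-likelihood test on counts with Benjamini-Hochberg adjustment over all 70383 contigs tested. A contig is said to be called where the adjusted p did not exceed 0.001 and the tissues differed by 1 or more on the log2 scale.

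The PLB libraries held much more class I KNOX, more WOX and more CUC transcript than the leaf libraries, and less of most class II KNOX contigs. Of the 40 members, 16 were called higher in PLBs, 4 were called lower, 15 were tested without a call and 5 did not pass the filter on low counts. Over all contigs tested, 16.8% were called higher and 22.9% lower, 39.7% in all. The calls fell by group: 11 of 14 class I KNOX, 4 of 10 WOX and 1 of 5 CUC contigs were called higher and none of these was called lower, while 4 of 11 class II contigs were called lower and none higher. The class I calls include CL11370 contig 6, which has a Maf-like domain and no KNOX domain. Of the 35 members that passed the filter on low counts, 11 had no count in any leaf library and passed it through their PLB values alone. Members with few leaf counts did so too, such as Unigene29804 (1 count in all), Unigene29733 (2) and Unigene22703 (2). In turn CL2883 contig 4 and CL8125 contig 3, both called lower, needed their leaf values to pass. The counts are therefore a description. No count in any leaf library was recorded for 15 of the 40 members, and every member had counts in PLBs. Of all contigs tested, the base that matches the 11 of 35, 4.32% had no leaf count and 7.33% no PLB count. All PLB values lay above all leaf values in TPM for 26 of the 40 members, below them for 8, and overlapped for 6. Over all contigs tested, 45.6% lay above and 34.1% below, whereas 5 of the 40 members were not tested. On normalised counts 25 members lay above, 8 below and 7 overlapped, where 38.3% of all contigs lay above and 40.4% below.

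**Figure D1:**
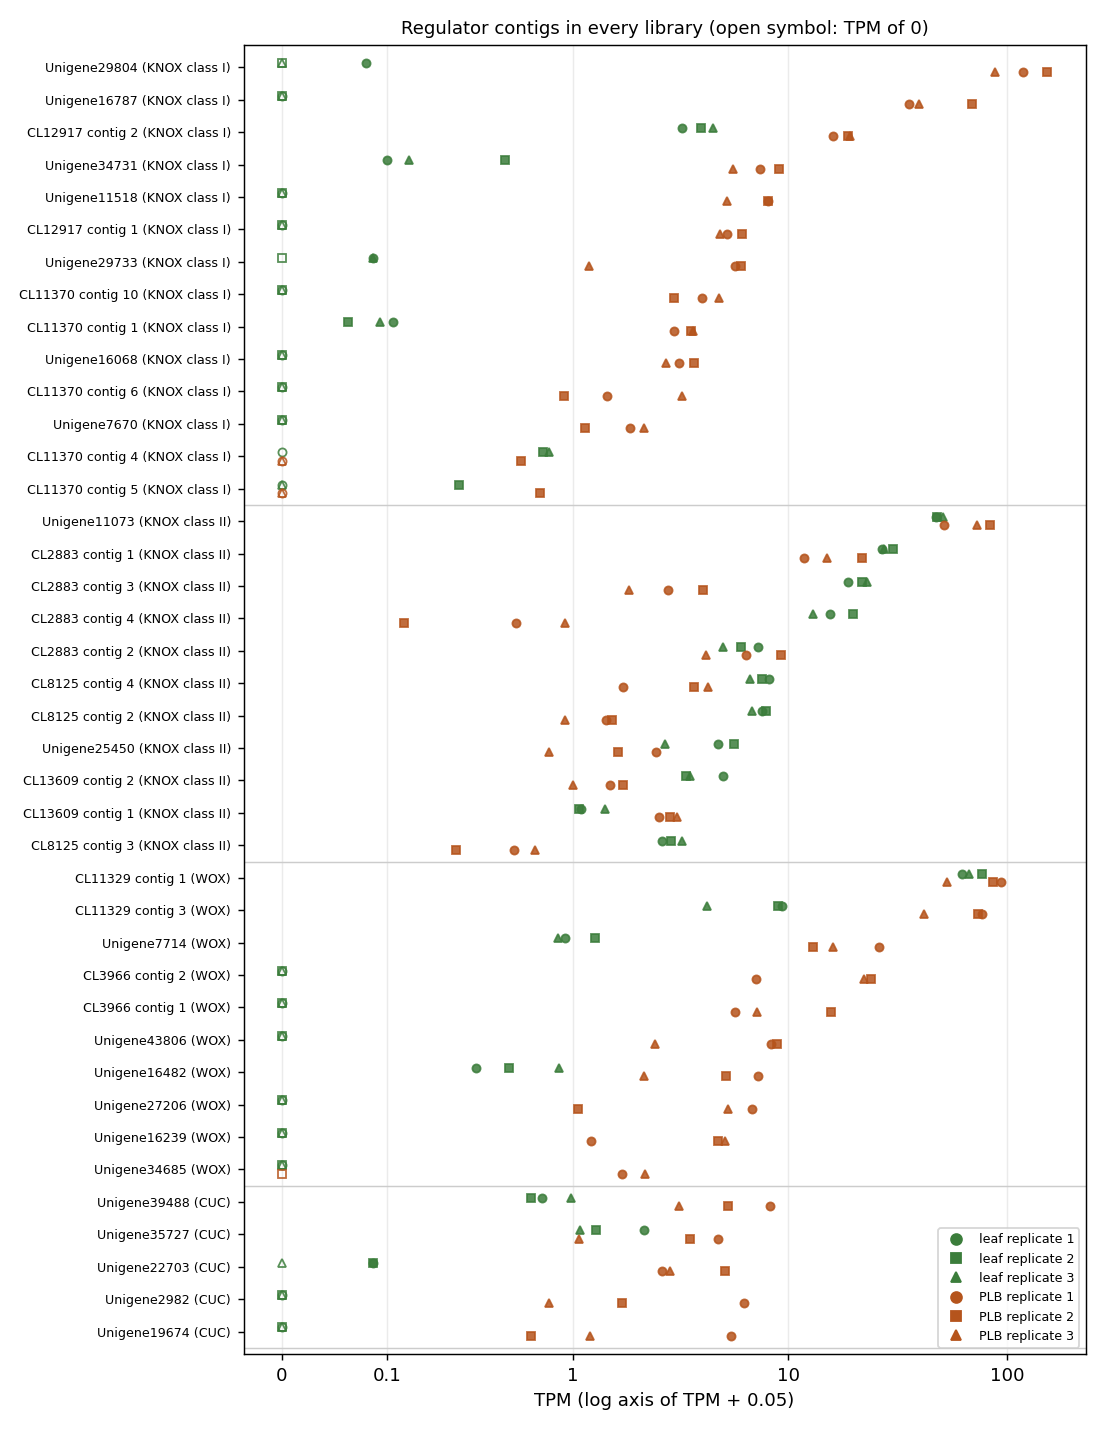
TPM of each of the 40 regulator contigs (rows, by group and then by mean level) in the 3 leaf libraries (green) and the 3 PLB libraries (brown), on a log axis with open symbols for a TPM of 0. The class I KNOX rows have leaf values below 1 TPM except for CL12917 contig 2, and 8 of the 11 class II rows have all PLB values below all leaf values.

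Class I KNOX transcript was all but missing from leaves. The 14 contigs summed to 3.60, 5.48 and 5.61 TPM in leaf replicates 1 to 3 and to 209, 282 and 180 TPM in PLB replicates 1 to 3. The means were 4.90 ± 1.12 (SD, n = 3) in leaves and 224 ± 52.6 (SD, n = 3) in PLBs, a ratio of 45.8 on the TPM scale. As a log2 ratio this is 5.52, against 4.32 on TMM-scaled counts and 4.43 in TPM without Unigene29804. In each leaf library CL12917 contig 2 alone gave 72.4% to 90.0% of the sum.

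Unigene29804 was the most abundant class I contig. It is described as knotted-1-like LET6, after the tomato class I gene, and its closest SwissProt protein is soybean SBH1. It measured 0.07, 0.00 and 0.00 TPM in the leaf libraries and 118, 152 and 88.0 TPM in the PLB libraries. A single count stood in leaves, so the groups lay far apart. The ratio of normalised counts was 3600 with an exact 95% counting interval of 646 to 142209, and the adjusted p was 6.23e-06 (edgeR). This contig gave 48.8% to 56.2% of the class I sum in each PLB library. Unigene11518, a knotted-like 1 protein whose closest SwissProt entry is SHOOT MERISTEMLESS of cabbage, and Unigene16068, a second LET6 contig, matched the same nucleotide locus although the assembly had not clustered them. Together the 3 contigs of this locus measured 129, 164 and 96.0 TPM in PLBs.

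Unigene16787, knotted-1-like 2, had no count in leaves and 35.8, 68.8 and 39.6 TPM in PLBs. PLB replicate 2 held the highest value, as it did for 8 of the 14 class I contigs. Against a floor of 3 counts over the leaf libraries the contig was at least 592-fold higher in PLBs (adjusted p = 8.89e-05, edgeR). Unigene11518 was at least 159-fold higher (adjusted p = 8.69e-05, edgeR), with 8.12, 8.12 and 5.27 TPM in the PLB libraries. Floors and intervals cover counting error only.

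Cluster CL12917 was the class I unit with a clear leaf level. Its contigs are described as knotted-1-like 1, and their closest SwissProt protein is the rice protein of that name. Contig 2 measured 3.24, 3.97 and 4.53 TPM in leaves and 16.0, 18.7 and 19.2 TPM in PLBs, and contig 1 had no count in leaves and 5.26, 6.14 and 4.85 TPM in PLBs. The PLB libraries lay above the leaf libraries for both contigs and were close to each other. For contig 2 the log2 fold change was 1.68 ± 0.20 (SE, adjusted p = 0.000245, edgeR), and contig 1 was at least 70.1-fold higher (adjusted p = 0.000168, edgeR). Summed over the cluster, with the fit run over 36425 clusters and unclustered unigenes, the log2 fold change was 1.93 ± 0.19 (SE, adjusted p = 4.46e-05, edgeR).

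The knotted-1-like 6 contigs were lower in level. Unigene34731 measured 0.10, 0.47 and 0.14 TPM in leaves and 7.47, 9.05 and 5.60 TPM in PLBs, and its log2 fold change was 4.49 ± 0.62 (SE, adjusted p = 0.000436, edgeR). Unigene29733, whose closest protein is knotted-1-like 6 of rice, measured 5.73 and 6.11 TPM in PLB replicates 1 and 2 but 1.2 TPM in PLB replicate 3, and 2 counts in leaves. Its PLB values stood above all leaf values, yet with that spread it missed the threshold as a contig (adjusted p = 0.00131, edgeR) and passed it in the fit of clusters and unclustered unigenes (adjusted p = 0.000842, edgeR). Unigene7670 had no leaf count and 1.15 to 2.16 TPM in the PLB libraries, and it was called higher (adjusted p = 0.000592, edgeR). Unigene16068, the second LET6 contig and not of this name, had no leaf count and 2.74 to 3.69 TPM in PLBs. That contig was called higher as well (adjusted p = 0.00045, edgeR).

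In cluster CL11370 contigs 1, 6 and 10 were called higher in PLBs, contig 4 was tested without a call and contig 5 was not tested. The 5 knotted contigs summed to 0.11, 1.04 and 0.86 TPM in leaves and 8.47, 8.74 and 11.8 TPM in PLBs. Over all 14 contigs of the cluster the sums were 11.5, 19.8 and 15.8 TPM in leaves and 37.2, 27.9 and 40.2 TPM in PLBs, so maf-like contigs supplied most of the cluster in both tissues. The cluster's change on the log2 scale, 2.33 ± 0.20 (SE, adjusted p = 1.95e-05, edgeR), is therefore not one of a KNOX gene alone. Contigs 4 and 5, with a Maf-like domain and no KNOX domain, were at 0 in 3 or more of the 6 libraries and overlapped between the tissues. Contig 6, which was called, has the same domain and nucleotide locus as contigs 4 and 5. Without the knotted contigs of this cluster, an alternative added after the data had been seen, 13 members were called higher.

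**Figure D2:**
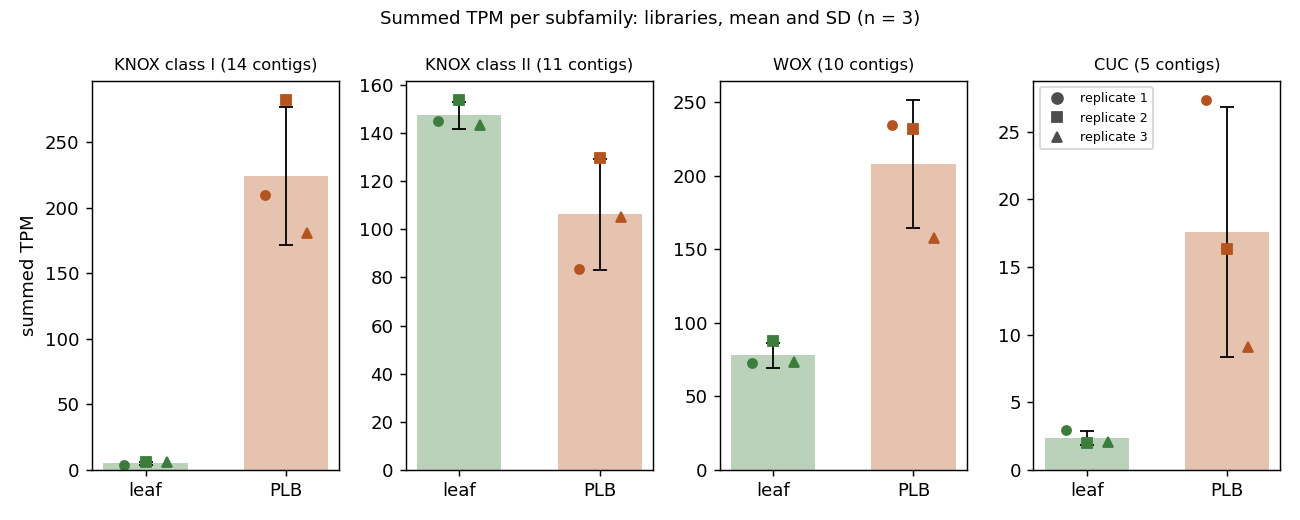
Summed TPM of each regulator group in leaf and PLB libraries, with points for the libraries (symbol by replicate), bars for means and error bars for the SD (n = 3), each panel with its own axis from 0. Class I KNOX averaged 4.90 TPM in leaves and 224 TPM in PLBs, and class II KNOX was 148 TPM in leaves and 106 TPM in PLBs.

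Most class II KNOX contigs showed the opposite order, the exceptions being Unigene11073, CL13609 contig 1 and CL2883 contig 2. The 11 contigs summed to 145, 154 and 143 TPM in leaves and 83.5, 130 and 105 TPM in PLBs. The means were 148 ± 5.73 (SD, n = 3) and 106 ± 23.2 (SD, n = 3) TPM, and no PLB library reached the lowest leaf library. In leaves the class II sum was far above that of class I, and in every PLB library it was below it. All PLB values lay below all leaf values for 8 of the 11 contigs, where 40.4% of all tested contigs did so on normalised counts (34.1% on TPM).

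Unigene11073, knotted-1-like 13, was the most abundant class II contig and did not fall. It measured 47.1, 47.7 and 50.8 TPM in leaves and 51.7, 83.0 and 72.6 TPM in PLBs. The TPM values did not overlap, but on the normalised count scale of the test they did, and the log2 fold change was 0.01 ± 0.21 (SE, adjusted p = 0.978, edgeR). It made up 31.0% to 35.4% of the class II sum in the leaf libraries and 61.9% to 68.9% in the PLB libraries.

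Cluster CL2883 carried most of the loss. Its 4 contigs are described as knotted-1-like 13 and are closest to tomato LET12, a class II gene, and all match the same locus. The cluster measured 68.5, 77.8 and 68.2 TPM in leaves and 21.6, 35.2 and 22 TPM in PLBs, and its log2 fold change was -2.02 ± 0.24 (SE, adjusted p = 0.000122, edgeR). Without leaf replicate 3 the cluster lost its call, at an adjusted p of 0.00108 (edgeR). Contig 4 went from 15.6, 19.8 and 12.95 TPM in leaves to 0.53, 0.13 and 0.92 TPM in PLBs (log2 fold change -5.48 ± 0.51, SE, adjusted p = 7.45e-05, edgeR). Contig 3 went from 18.9, 21.9 and 22.9 TPM to 2.81, 4.08 and 1.84 TPM (log2 fold change -3.36 ± 0.32, SE, adjusted p = 8.39e-05, edgeR). Contig 1, the most abundant in both tissues, measured 26.8, 30.1 and 27.3 TPM in leaves and 11.8, 21.7 and 15.1 TPM in PLBs and was not called (adjusted p = 0.00296, edgeR). Contig 2 overlapped between tissues, with 5.02 to 7.26 TPM in leaves and 4.19 to 9.28 TPM in PLBs. The contigs of this cluster thus differed in how far they fell: contig 4 supplied 19.0% to 25.4% of the cluster in leaves and 0.369% to 4.18% in PLBs, and contig 2 went from 7.36% to 10.6% up to 19.0% to 29.8%.

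Cluster CL8125, described as knotted-1-like 3 and closest to a rice protein of the same name, also fell. Its 3 member contigs summed to 18.5, 18.4 and 16.8 TPM in leaves and 3.70, 5.51 and 5.87 TPM in PLBs, and its log2 fold change was -2.37 ± 0.22 (SE, adjusted p = 3.46e-05, edgeR). Contigs 2 and 3 were called lower, and contig 4 was lower in every PLB library without a call (adjusted p = 0.00373, edgeR). Unigene25450, closest to KNAT3, measured 2.72 to 5.66 TPM in leaves and 0.77 to 2.48 TPM in PLBs (adjusted p = 0.00855, edgeR). In cluster CL13609 contig 2, closest to KNAT4, measured 5.04, 3.41 and 3.53 TPM in leaves and 1.50, 1.73 and 1.01 TPM in PLBs, while contig 1 measured 1.10, 1.07 and 1.42 TPM and 2.54, 2.86 and 3.10 TPM. The contigs of this pair thus lay in opposite orders, but neither was called (adjusted p = 0.00168 and 0.133, edgeR). Contig 1 made up 17.9% to 28.7% of the pair in leaves and 62.3% to 75.4% in PLBs.

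**Figure D3:**
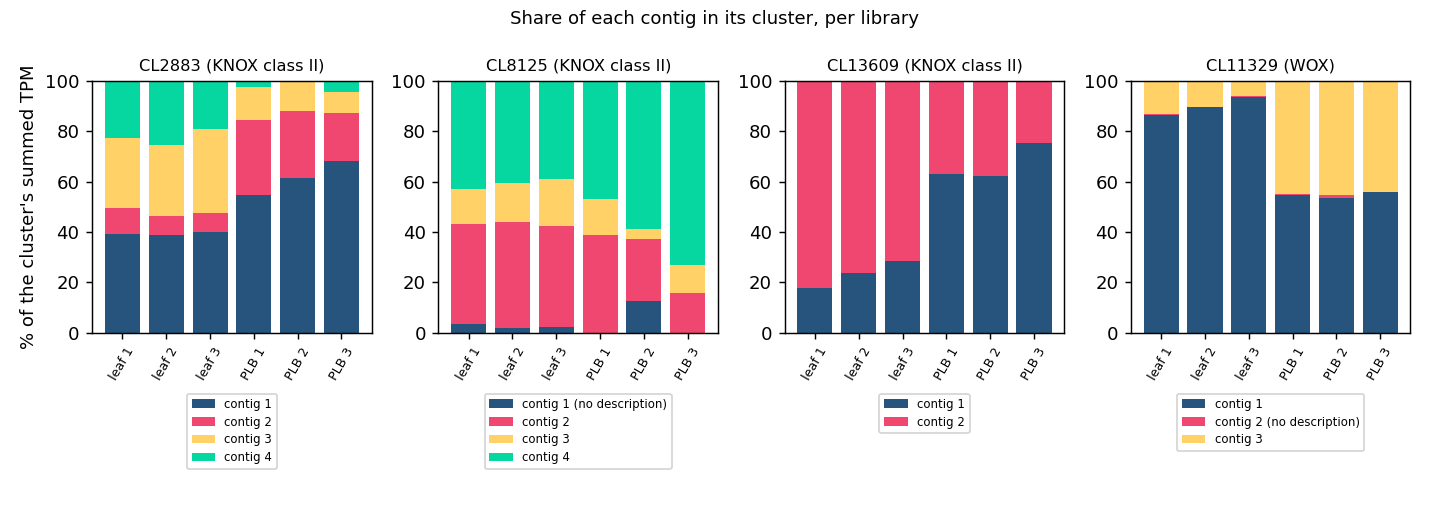
Share of the summed TPM of a cluster taken by each of its contigs, in percent, for 3 class II KNOX clusters and the WOX cluster CL11329 in each of the 6 libraries. Contig 4 of CL2883 shrank from 19.0% or more in every leaf library to 4.18% or less in every PLB library, and contig 3 of CL11329 grew from at most 13.1% to at least 44.1%.

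Reads that match several contigs of a cluster were divided among them by an estimate, so the shares within a cluster are less certain than its sum.

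The WOX contigs summed to 72.8, 87.5 and 73.1 TPM in leaves and 235, 232 and 157 TPM in PLBs, with means of 77.8 ± 8.38 and 208 ± 43.9 TPM (SD, n = 3). The leaf level came almost wholly from CL11329, a cluster named after WOX8 of rice. Its contig 1 measured 62.2, 76.7 and 67.2 TPM in leaves and 93.8, 86.4 and 53.0 TPM in PLBs. These ranges overlap, and the log2 fold change was -0.33 ± 0.23 (SE, adjusted p = 0.235, edgeR). Contig 3 measured 9.39, 9.01 and 4.24 TPM in leaves and 76.7, 73.3 and 41.8 TPM in PLBs, and its log2 fold change was 2.58 ± 0.37 (SE, adjusted p = 0.000504, edgeR). As a whole the cluster was not called (log2 fold change 0.35 ± 0.23, SE, adjusted p = 0.202, edgeR). The call of contig 3 was lost with any 1 library left out except PLB replicate 3, with adjusted p-values of at most 0.00321.

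Unigene7714, also WOX8-like but at another locus, measured 0.92, 1.28 and 0.85 TPM in leaves and 25.9, 13 and 16.1 TPM in PLBs (log2 fold change 3.65 ± 0.31, SE, adjusted p = 4.90e-05, edgeR). It is the WOX contig that was called with every library left out in turn. Cluster CL3966 is named after WOX11, which in rice starts crown roots. Its 2 contigs had no count in leaves. Together they measured 12.8, 39.6 and 29.4 TPM in PLBs, lowest in PLB replicate 1. Contig 2 was at least 188-fold and contig 1 at least 98.0-fold higher in PLBs (adjusted p = 0.000517 and 0.000605, edgeR), and the cluster was called as well (adjusted p = 0.000142, edgeR).

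The contig named WUSCHEL-like, Unigene16239, is closest to the petunia WUSCHEL protein. It had no count in leaves and 1.23, 4.77 and 5.12 TPM in PLBs, at least 24.7-fold higher, and it was not called (adjusted p = 0.00281, edgeR). Unigene43806, named after WOX6, had no leaf count and 8.32, 8.89 and 2.43 TPM in PLBs. It missed the threshold as a contig (adjusted p = 0.00118, edgeR) and passed it in the fit of clusters and unclustered unigenes (adjusted p = 0.000684, edgeR). Unigene16482, named WOX4, a gene of the vascular cambium in Arabidopsis, measured 0.33, 0.49 and 0.86 TPM in leaves and 7.30, 5.17 and 2.18 TPM in PLBs (adjusted p = 0.00637, edgeR). The contigs named WOX9, which in Arabidopsis acts in early embryo growth, did not pass the filter on low counts. Unigene27206 had no leaf count and 6.83, 1.06 and 5.28 TPM in PLBs, and Unigene34685 was found in PLB replicates 1 and 3 at 1.71 and 2.19 TPM. Without the filter Unigene27206 was not called as a contig (adjusted p = 0.0013, edgeR) and was called higher in the fit of clusters and unclustered unigenes (adjusted p = 4.89e-07, edgeR). With the filter, the latter fit did not call it when 1 leaf library was left out (adjusted p = 0.0056 to 0.00762, edgeR). Without PLB replicate 2 that fit called it higher (adjusted p = 0.000811, edgeR). In this family the leaf values were 0 for 6 of the 10 contigs.

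CUC transcript was low in both tissues. The 5 contigs, each at a locus of its own, summed to 2.97, 2.00 and 2.07 TPM in leaves and 27.4, 16.4 and 9.05 TPM in PLBs, and the means were 2.35 ± 0.541 and 17.6 ± 9.24 TPM (SD, n = 3). PLB replicate 1 was highest for 4 of the 5 contigs. Unigene39488, named CUC1-like, measured 0.71, 0.63 and 0.98 TPM in leaves and 8.23, 5.32 and 3.14 TPM in PLBs, and it was not called (log2 fold change 2.31 ± 0.48, SE, adjusted p = 0.00313, edgeR). Unigene22703, named CUC2-like, was the called contig. It measured 0.08, 0.08 and 0.00 TPM in leaves and 2.63, 5.15 and 2.86 TPM in PLBs. With 2 counts in leaves the ratio of normalised counts was 48.4, with an exact 95% counting interval of 13.1 to 404 (adjusted p = 0.000426, edgeR). The call was lost with any 1 of the 6 libraries left out, at adjusted p-values of 0.00139 to 0.00346.

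The other 3 CUC contigs gave no call with the filter. Unigene2982, the CUC3-like contig, had no leaf count and 6.26, 1.71 and 0.77 TPM in PLBs. Unigene19674 had no leaf count and 5.49, 0.63 and 1.21 TPM in PLBs. Both were at their highest in PLB replicate 1 and did not pass the filter on low counts. Without the filter neither was called as a contig (adjusted p = 0.00276 and 0.00297, edgeR), and both were called higher in the fit of clusters and unclustered unigenes (adjusted p = 2.40e-06 and 2.23e-06, edgeR). Dropping the filter lowered the adjusted p of other units too, such as CL2883, from 0.000122 to 3.16e-10 (edgeR). With the filter and 1 leaf library left out, the cluster fit called neither contig (adjusted p = 0.0113 to 0.0150 and 0.0127 to 0.0168, edgeR). Unigene35727 overlapped between the tissues, with 1.09 to 2.18 TPM in leaves and 1.07 to 4.79 TPM in PLBs (adjusted p = 0.443, edgeR).

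**Figure D4:**
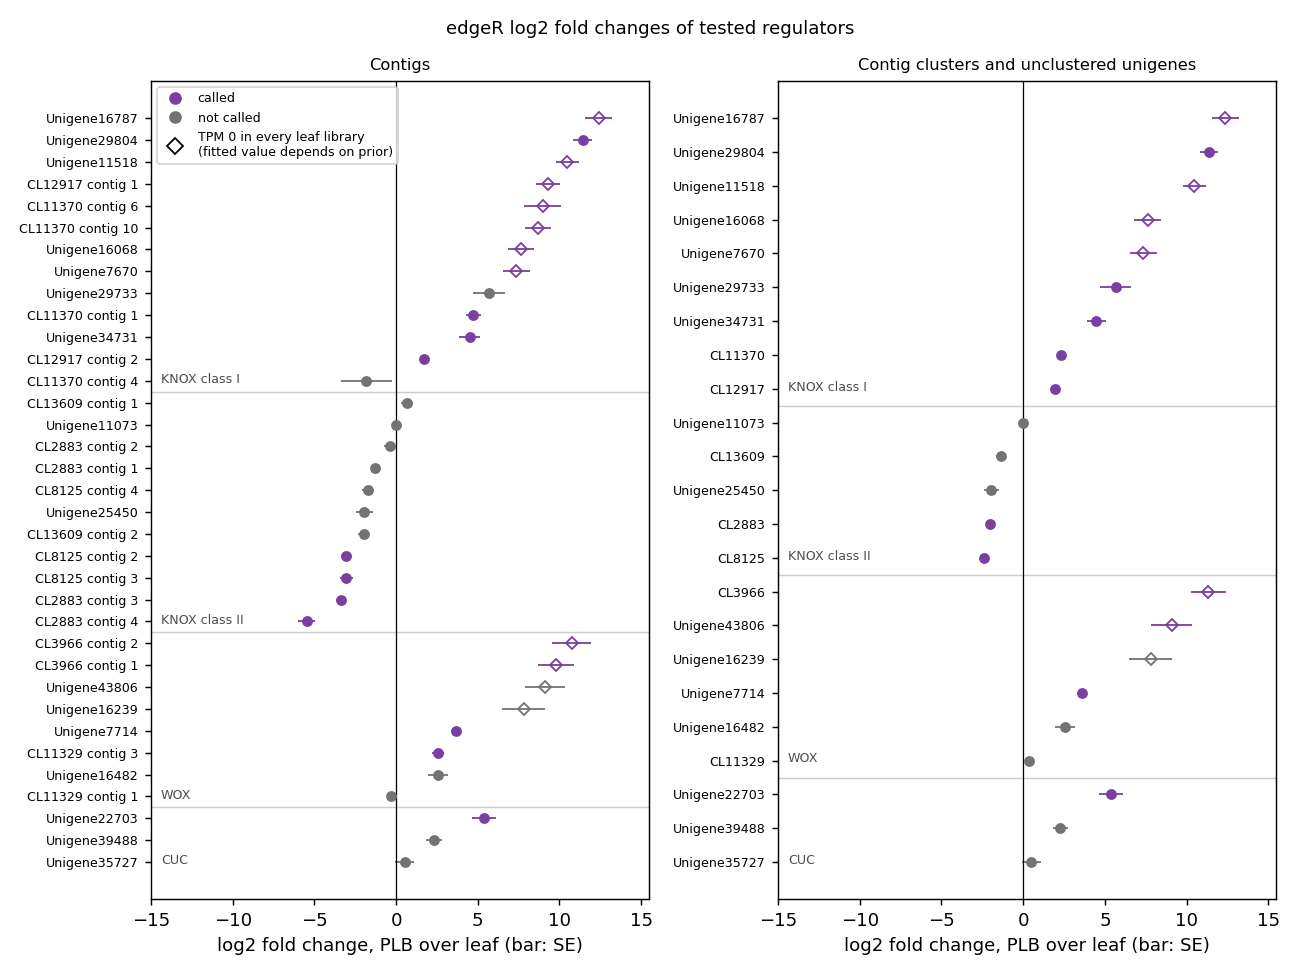
edgeR log2 fold changes of PLB over leaf with their SE for the 35 tested contigs (left) and the 23 tested clusters and unclustered unigenes (right), purple where called. Open diamonds had a TPM of 0 in every leaf library, and their fitted values are no bound. All 9 class I KNOX units lie to the right of 0 and the 5 class II units at or near 0 or to the left of it.

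By contig cluster the picture was simpler. Of the 27 units, 23 were tested, 13 were called higher and 2 lower. Of all clusters and unclustered unigenes tested, 17.4% were called higher and 22.9% lower, 40.3% in all. With scaling by library size alone 8060 of these units were higher and 6789 lower, against 6350 and 8329, and the 15 calls of members were kept. All 9 class I KNOX units were called higher, CL11370 with its maf-like contigs among them, with 3 of the 8 WOX units and 1 of the 5 CUC units. Unigene29804, Unigene11518 and Unigene16068 matched the same nucleotide locus, so the 9 units are not 9 separate genes. Without the filter on low counts 5 WOX and 4 CUC units were called higher, Unigene16239, Unigene27206, Unigene2982, Unigene19674 and Unigene39488 being added. In that fit 9366 of all 97314 units were called higher and 11076 lower. CL2883 and CL8125 were the class II units called lower, out of 5. No cluster held member contigs called in opposite directions. Contigs that are not members, such as the maf-like contigs 11 to 14 of CL11370, which had counts in leaves and none in PLBs, are not covered by that count.

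The spread between libraries was larger in PLBs. Over tested members with a mean of at least 1 TPM in PLBs the median CV was 34.0%, with 23.4% for class I KNOX, 31.2% for class II KNOX, 52.4% for 8 WOX contigs and 45.9% for 3 CUC contigs. Over all tested contigs it was 25.5% in PLBs and 15.2% in leaves. The 20 contig calls kept their direction with each library left out, and their largest adjusted p was 0.00390, but 7 of them stayed within the threshold of 0.001 each time. These were Unigene29804, Unigene16787, Unigene11518, Unigene7714, CL2883 contigs 3 and 4 and CL8125 contig 2. The number of members called higher was 5 to 9 with 1 library left out. Over all contigs it was 4591 to 6879, against 11858 with every library.

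Marker lists moved between the tissues too, and their part in the results was not tested. In bulk RNA, fewer cells of a type and less RNA per cell cannot be told apart. Contigs of green leaf tissue (chlorophyll a-b binding proteins and the RuBisCO small subunit) summed to 26081 to 30925 TPM in leaves and 1339 to 3441 TPM in PLBs, with 30 of 52 tested contigs called lower and 5 higher, where 22.9% and 16.8% of all contigs were. Contigs of dividing cells (B-type cyclins, CDKB and PCNA) summed to 646 to 683 TPM in leaves and 833 to 961 TPM in PLBs, with 4 of 17 tested called higher and 2 lower. This is a TPM ratio of 1.34, below the offset of the TPM scale. Those of the stomatal lineage summed to 216 to 240 TPM in leaves and 51.7 to 84.1 TPM in PLBs (7 of 14 tested lower, 3 higher), and those of xylem to 163 to 200 and 226 to 282 TPM (3 of 11 tested each way). For xylem the TPM ratio was likewise 1.34, below that offset. Of the 22 xylem contigs 13 carried another protein name first. Of the 7 tested with the marker word in the first name, 0 were called higher and 2 lower. AGAMOUS-type and other floral MADS-box contigs summed to 21.3 to 32.0 TPM in leaves and to 311, 530 and 66.6 TPM in PLB replicates 1 to 3, with 4 of 14 tested called higher and 2 lower. The lists held 63, 27, 27, 22 and 34 contigs in the order given, of which 3, 6, 9, 7 and 9 had no count in any leaf library, and 8, 2, 4, 4 and 6 had none in any PLB library. PLB replicate 3 was lowest for the green leaf, stomatal and floral sums, and it also had the lowest class I KNOX, WOX and CUC sums. It was not lowest for class II KNOX (105 TPM, against 83.5 in PLB replicate 1) or dividing cells (874 against 833). For the AIL, BBM and ANT contigs, described next, it had the highest sum, 307 TPM.

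The AP2-type factors AINTEGUMENTA (ANT), the AINTEGUMENTA-like (AIL) proteins and BABY BOOM (BBM) keep meristems growing, and BBM can start embryos on leaves when it is forced on in Arabidopsis. The 49 contigs with these short names, a list added after the annotation had been seen, summed to 33.7, 30.9 and 32.1 TPM in leaves and 178, 216 and 307 TPM in PLBs. Of them 28 were tested, 13 were called higher and 6 lower, where 16.8% and 22.9% of all contigs were, and 29 had no count in any leaf library. As 13 of those tested had no leaf count and passed the filter through their PLB values alone, the counts are a description. Cluster CL2199 (AIL5, 14 contigs) measured 0.00, 0.06 and 0.00 TPM in leaves and 74.7, 101 and 173 TPM in PLBs. Its contig 6 held 52.9, 73.7 and 120 TPM of this, with no leaf count, and was at least 1148-fold higher (adjusted p = 5.94e-05, edgeR). CL4059 (AIL1) measured 0.16 to 0.44 TPM in leaves and 34.1, 39.5 and 65.4 TPM in PLBs, and CL6541 (ANT) 0.00 to 0.13 TPM in leaves and 33.3, 32.5 and 22.5 TPM in PLBs. All 3 clusters were called higher, at adjusted p-values of 1.78e-06, 2.00e-06 and 1.95e-06 (edgeR).

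CL1915, described as BBM2 and AIL5, was the cluster of several contigs on this list that was not called higher. Its sum was 17.6, 16.4 and 18.02 TPM in leaves and 15.0, 14.8 and 16.6 TPM in PLBs, and it was not called (log2 fold change -0.65 ± 0.12, SE, adjusted p = 0.00136, edgeR). Within it, however, 6 contigs were called lower and 2 higher. Contig 9 measured 4.90, 5.52 and 4.36 TPM in leaves with no count in PLBs and was at least 147-fold lower there (adjusted p = 6.18e-05, edgeR). Contig 6 measured 0.79, 0.85 and 1.36 TPM in leaves and 9.25, 10.7 and 11.9 TPM in PLBs (log2 fold change 2.88 ± 0.30, SE, adjusted p = 0.000117, edgeR), and contig 3 had no leaf count and 3.68 to 5.71 TPM in PLBs. Different contigs thus led in each tissue. Among the contigs outside clusters, Unigene411 (AIL1) measured 5.42, 3.90 and 3.79 TPM in leaves and 1.07, 0.62 and 1.74 TPM in PLBs and was called lower in the fit of clusters and unclustered unigenes (log2 fold change -2.49 ± 0.37, SE, adjusted p = 0.000398, edgeR), though it just missed the threshold as a contig (adjusted p = 0.001003, edgeR). Unigene22688, named BBM1, measured 3.35, 3.20 and 2.17 TPM in leaves and 0.67, 1.09 and 0.33 TPM in PLBs and was called in neither fit (adjusted p = 0.00153 as a unit and 0.00296 as a contig, edgeR). Other contigs outside clusters were higher in PLBs. Unigene18512 (AIL1) measured 1.83 to 2.1 TPM in leaves and 8.56 to 13.3 TPM in PLBs. It was called higher in both fits (adjusted p = 0.000232 as a unit, edgeR). Unigene32490 (ANT), at 0.07 to 0.15 TPM in leaves and 1.12 to 4.57 TPM in PLBs, was not called as a contig. As a unit it was called higher (adjusted p = 0.000758, edgeR). Contigs 3 and 6 of CL1915 and these 4 contigs outside clusters were picked for naming with their values known.

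**Figure D5:**
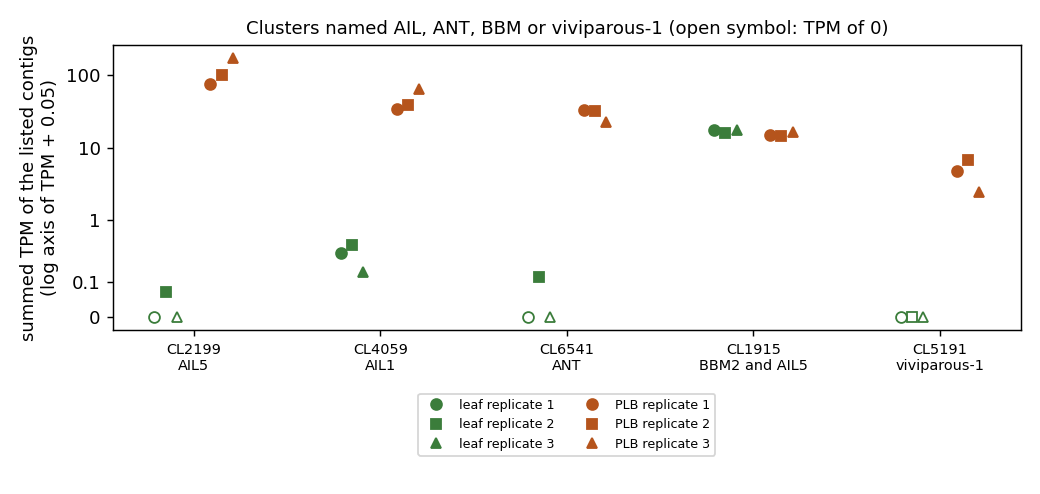
Summed TPM of the listed contigs in 5 clusters named AIL5, AIL1, ANT, BBM2 and viviparous-1, in every leaf (green) and PLB (brown) library, on a log axis with open symbols for 0. Leaf values are at most 0.44 TPM in every cluster but CL1915, where leaf and PLB libraries lie between 14.8 and 18.02 TPM.

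Viviparous-1 of maize is the counterpart of ABSCISIC ACID INSENSITIVE3, a B3 factor of seed maturation. The 6 contigs of this name, also added later, had no count in leaves and summed to 7.95, 9.59 and 2.54 TPM in PLBs. CL5191 contig 1 was the contig that passed the filter, through its PLB values alone, at 3, 5.28 and 2.03 TPM in PLBs, at least 62.8-fold higher (adjusted p = 0.000639, edgeR).

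Other genes of these pathways were counted from word lists over all protein names given for a contig, and the first name can differ from the list's word. Together the 9 lists held 228 tested contigs, of which 47 were called higher and 39 lower, or 56 and 30 with scaling by library size alone. Over all contigs, 16.8% were called higher and 22.9% lower. BELL proteins pair with KNOX proteins in the nucleus. Of 57 BELL contigs 50 were tested, 6 were called higher and 13 lower, and the median log2 fold change of the tested ones was -0.61. Unigene19268 (BEL1-like 9) measured 22.1, 19.8 and 21.3 TPM in leaves and 92.4, 108 and 99.8 TPM in PLBs (log2 fold change 1.74 ± 0.15, SE, adjusted p = 4.71e-05, edgeR). CL3618 contig 3 (BEL1 homolog) measured 51.8, 50.9 and 43.2 TPM in leaves and 2.03, 4.06 and 4.01 TPM in PLBs (log2 fold change -4.35 ± 0.30, SE, adjusted p = 2.05e-05, edgeR). The rough sheath 2 homolog, which in maize holds class I KNOX genes off in leaves, measured 4.05, 5.09 and 3.34 TPM in leaves and 22.6, 13.4 and 10.5 TPM in PLBs and was not called (log2 fold change 1.37 ± 0.35, SE, adjusted p = 0.00883, edgeR).

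CLAVATA-type signalling limits WUSCHEL in the shoot meristem. Of its 12 contigs, 2 of which are named first as ribosomal proteins, 7 were tested, 1 was called higher and none lower. This was CL14666 contig 1, named CORYNE, a receptor-like kinase of that pathway, with 0.32 to 0.58 TPM in leaves and 5.87 to 7.53 TPM in PLBs (log2 fold change 3.39 ± 0.32, SE, adjusted p = 7.72e-05, edgeR). TOPLESS proteins are co-repressors that WUSCHEL recruits. Of 9 contigs 8 were tested, 5 were called higher and 2 lower. Another name stood first in 4 of the 9, and of the 4 tested with the word in the first name 2 were called higher and 1 lower. Unigene11098 measured 72.7 to 81.4 TPM in leaves and 275 to 392 TPM in PLBs, and Unigene13453, of the same name TPR3-like, 98.8 to 100.2 TPM in leaves and 0.00 to 0.05 TPM in PLBs (adjusted p = 8.93e-05 and 2.76e-06, edgeR). HAIRY MERISTEM-type GRAS proteins are partners of WUSCHEL. Of 17 such contigs 12 were tested, none was called higher and 2 were called lower, led by Unigene29082 (Scarecrow-like protein 6; log2 fold change -1.01 ± 0.14, SE, adjusted p = 0.000479, edgeR).

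Seed storage and late embryogenesis genes are targets of the LEC1, ABI3 and FUS3 programme. Of 47 contigs 33 were tested, 17 were called higher and 2 lower, and 19 had no leaf count. As 12 of those tested had no leaf count and passed the filter through PLB values alone, this count too is a description. Of 27 tested with the word in the first name 13 were called higher and 1 lower. The list summed to 419 to 423 TPM in leaves and to 1888, 2736 and 1404 TPM in PLBs. CL14030 contig 2, an 11 kDa late embryogenesis abundant protein, had no leaf count and 591, 933 and 342 TPM in PLBs (at least 3370-fold higher, adjusted p = 9.26e-05, edgeR), whereas CL12373 contig 1, of the Lea5 type, measured 172 to 190 TPM in leaves and 15.3 to 47.6 TPM in PLBs (log2 fold change -2.83 ± 0.42, SE, adjusted p = 0.000601, edgeR). LEA proteins are also made under drought, outside seeds. Of 99 nuclear factor Y contigs, a family of which LEC1 is a special B subunit, 72 were tested, 13 were called higher and 16 lower, and of 59 tested with the word in the first name 10 were higher and 13 lower. CL1648 contig 3 (subunit C-9) measured 43.8 to 51.6 TPM in leaves and 143 to 198 TPM in PLBs (adjusted p = 0.000373, edgeR), and CL1604 contig 1 (subunit B-1) 38.3 to 38.5 TPM and 14.2 to 24.1 TPM (adjusted p = 0.000932, edgeR).

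Chromatin repressors such as PICKLE and the Polycomb proteins keep the embryo programme off in seedlings. Of 37 contigs in that list 34 were tested, 5 were called higher and 2 lower. Another name stood first in 25 of them, such as CLASSY or CHROMATIN REMODELING, and of the 12 with the word in the first name 2 were called higher and none lower. CL7463 contig 2 (PICKLE) measured 2.68, 5.23 and 3.45 TPM in leaves and 46.6, 49.7 and 52.8 TPM in PLBs (log2 fold change 3.20 ± 0.26, SE, adjusted p = 3.75e-05, edgeR), and Unigene22019, named CLASSY 2-like, 7.16 to 8.33 TPM and 2.30 to 4.74 TPM (log2 fold change -1.69 ± 0.24, SE, adjusted p = 0.000486, edgeR). Somatic embryogenesis receptor kinases mark cells that form embryos in culture in carrot, and they also serve as co-receptors in leaves. Of 13 contigs 11 were tested, none was called higher and 2 were called lower, 9 of the 13 having another name first. CL11230 contig 7, named BAK1-like, measured 9.74 to 13.9 TPM in leaves and 0.15 to 0.31 TPM in PLBs (log2 fold change -6.24 ± 0.33, SE, adjusted p = 7.75e-06, edgeR), while the list as a whole summed to 134 to 143 TPM in leaves and 133 to 161 TPM in PLBs.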

How the data were processed

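RNA-Seq of leaves and PLBs was used, with 3 libraries per tissue; groups follow the tissue label. Per library the authors deposited expected counts (estimated reads per unigene), TPM and FPKM. Per the labels, the processing notes name Bowtie2 2.2.5, RSEM 1.2.8 and DESeq2, without roles; the paper's results name Trinity and Tgicl for the assembly and BGISEQ-500 for sequencing, and its methods name BLAST for mapping and a PacBio reference. The table of the series holds the same FPKM (largest difference 0), the annotation, and log2 fold changes, p-values and q-values of the authors' own comparison, as deposited, which were not used. Unused per-sample columns: 0.

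Members were found by words in the NR description. Expected counts were rounded, filtered (filterByExpr), scaled by TMM and tested with edgeR 4.0.16 (glmQLFit, glmQLFTest) in R 4.3.3 over all contigs, and again after summing contigs of a cluster. The SE was derived from the fitted change and its F statistic. The biological coefficient of variation was 0.337 for contigs and 0.245 for clusters. Where a tissue had no count, folds use a floor of 3 counts over its libraries, with TMM-scaled totals; with 1 to 3 counts an exact binomial interval (95%) is given. Family and list sums are descriptions without a test. Alternatives used DESeq2 1.42.0, limma 3.58.1 with pseudocounts of 0.1 and 1 on log2 FPKM, other scalings, filters and memberships, and each library left out. Tables used Python 3.11.15, pandas 2.3.3, numpy 2.4.6 and scipy 1.17.1.

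The members and lists were chosen with earlier results of these data known. Named contigs follow a rule: per family the 4 with the highest mean TPM, the 2 called with the largest rise and the 2 with the largest fall; every called cluster; and per list the called contig with the highest TPM each way. All other members are given because each was to be accounted for. No sequence was available in the sources used here, and none is shown.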

Additional observations from a re-analysis of the deposited data

How the results depend on the processing

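No paired analysis was possible because the labels give no replicate numbers that join leaf and PLB libraries. Contigs called higher (16) numbered 5 to 9 with 1 library left out, and 30 with the AIL, BBM, ANT and viviparous-1 contigs added (chosen after seeing the data). Over all contigs tested the number called higher fell as well, from 11858 to between 4591 and 6879 with 1 library left out. Those called lower (4) were 8 with DESeq2, 8 at an adjusted p below 0.05 with no limit on fold change, 10 with the added contigs and 3 to 4 with 1 library left out. Over all contigs tested 16090 were called lower, 20602 with DESeq2, 26212 at the looser threshold and 6687 to 10943 with 1 library left out. Clusters called higher (13) numbered 7 to 13 and those called lower (2) 1 to 2 with 1 library left out. Over all clusters and unclustered unigenes 6350 were called higher and 8329 lower, against 2891 to 4969 and 4616 to 7294 with 1 left out. Lower clusters were 4 with DESeq2 and 4 at the looser threshold. The calls in the related lists (47 higher, 39 lower) numbered 20 to 35 and 14 to 30 with 1 library left out. All other alternatives were within 1.5 times of these counts, and DESeq2, RLE and library size scaling each kept all 20 contig and 15 cluster calls. With limma on log2(FPKM + 1) CL11370 contig 6 lost its call. Scaling by library size alone moved the median of all contigs by 0.32 and of all clusters by 0.35 on the log2 scale. It gave 16 members higher and 4 lower, as with TMM.

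The log2 ratios of summed TPM were 5.52 for class I KNOX, -0.47 for class II KNOX, 1.42 for WOX and 2.91 for CUC. With TMM-scaled counts they were 4.32, -0.92, 0.99 and 2.45. With the contig of most counts alone they were 12.32 for class I, 0.51 for class II (the sign turned, as Unigene11073 stands for the group), 0.18 for WOX and 2.85 for CUC. Without Unigene29804, whose SwissProt name lacks the words, class I was 4.43. Among the named contigs 169 of 196 values stayed on their side of the threshold, 22 lost and 5 gained a call, and none reversed. The filter on low counts left 5 members untested. Without it the contig fit called none of them, and the cluster fit called 18 units higher and 3 lower, Unigene27206, Unigene2982 and Unigene19674 among the higher. In that cluster fit 9366 of all 97314 units were called higher and 11076 lower. With the filter and 1 leaf library left out, the cluster fit called neither Unigene27206 nor Unigene2982 nor Unigene19674.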
